A study of Mus musculus with 15 samples.

Results

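The costimulatory and checkpoint ligands and receptors of antigen-presenting cells were followed through 10 genes, namely Cd80, Cd86, Icosl, Cd40, Cd274, Pdcd1lg2, Cd276, Havcr2, Vsir and Cd200r1. They were chosen by name, as the rows of a deposited expression table whose Ensembl identifiers map to these mouse symbols. All 10 were found among the 56979 identifiers of the table. Levels are TPM, a share of each library's transcripts that is corrected for transcript length, so that levels of different genes can be set side by side. The group holds ligands and receptors alike, since Cd40, Havcr2 and Cd200r1 encode receptors and the Vsir product acts as both.

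Polyadenylated RNA of wild type mouse bone marrow cells was sequenced in 15 libraries, 9 of BMDM (bone marrow-derived macrophages) and 6 of BMSC, an abbreviation that the labels do not spell out. The BMDM groups were Control (vehicle), LPS (lipopolysaccharide, a bacterial cell wall component that activates macrophages) and LPS_NZM (LPS with NZM). The BMSC groups were Aged, whose treatment is given as H2HO, and Aged_NZM, given as H2HO with NZM. Each group had 3 libraries, and the submitters state that NZM followed a pretreatment with model drugs. The labels explain neither NZM nor H2HO and give no dose, time or animal age, so the name Aged is used here only as a group name. They do not say what a replicate is, so the p-values cover the spread among libraries of a group and no more, and that spread may be technical. Not analysed here were BMDM with NZM alone and BMSC free of H2HO.

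The macrophage label of the BMDM was checked against 8 macrophage markers, whose summed level was between 22035 and 28945 TPM in every BMDM library, none of the 8 being under 1 TPM. The same libraries also held 10 stromal markers at sums of 2250 to 3016 TPM and 8 neutrophil markers at 1488 to 2444 TPM. A level in BMDM may therefore belong to a mixture of cells, but the source of these marker transcripts was not tested. In such bulk samples, fewer cells of a type and less RNA per cell cannot be told apart. The BMSC libraries had stromal marker sums of 1258 to 1359 TPM in Aged and 4149 to 4234 TPM in Aged_NZM. The pan-leukocyte gene Ptprc was listed at 0 in 5 of the 6 BMSC libraries and at 0.02 TPM in the other. The 8 macrophage markers summed to 121 to 130 TPM in Aged and 107 to 120 TPM in Aged_NZM. In each group 3 of the 8 were under 1 TPM, among them Adgre1 and Itgam, which reached no more than 0.09 TPM.

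T cells need a signal through the antigen receptor and a costimulatory signal to respond fully. CD80 and CD86 on the presenting cell give that signal through CD28 and restrain the T cell through CTLA-4, ICOS ligand binds ICOS, and CD40 receives the CD40 ligand of helper T cells and in turn activates the presenting cell. The PD-1 ligands PD-L1 (Cd274) and PD-L2 (Pdcd1lg2) dampen T cells through PD-1. In macrophages, PD-L1 is known as a gene of inflammatory and interferon stimulation, and PD-L2 as a gene of interleukin-4 stimulation acting through STAT6. TIM-3 (Havcr2), VISTA (Vsir) and CD200R (Cd200r1) are inhibitory molecules carried by myeloid cells themselves.

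Cd274 and Pdcd1lg2 lie next to each other on chromosome 19, with 0 protein-coding genes between them, and they moved in opposite directions with NZM in LPS-treated BMDM. Their promoter sequences are therefore shown here, as the 250 bases before each annotated start in the RefSeq table of build GRCm38.p6 (the deposited levels were made on GRCm39). The Cd274 window is chr19:29367188-29367437 and the Pdcd1lg2 window chr19:29410669-29410918, both on the plus strand. Capitals mark matches to 5 motifs searched on both strands.
Cd274: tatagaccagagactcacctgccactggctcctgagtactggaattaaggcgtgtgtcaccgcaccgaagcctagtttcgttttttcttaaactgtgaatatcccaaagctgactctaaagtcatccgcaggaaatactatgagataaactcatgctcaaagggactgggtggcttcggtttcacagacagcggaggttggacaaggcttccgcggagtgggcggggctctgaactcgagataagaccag
Pdcd1lg2: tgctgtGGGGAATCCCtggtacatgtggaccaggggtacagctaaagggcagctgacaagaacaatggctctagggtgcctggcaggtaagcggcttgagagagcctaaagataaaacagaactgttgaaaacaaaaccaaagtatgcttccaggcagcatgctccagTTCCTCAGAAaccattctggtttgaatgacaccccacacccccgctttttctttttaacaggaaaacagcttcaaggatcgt
The Pdcd1lg2 window held a match to the STAT6 element TTCNNNNGAA, at bases -82 to -73 counted from the start, and a match to the NF-kB element at bases -244 to -235. The Cd274 window held none of the 5. Over 32851 promoter windows of this length, 5.85% held the STAT6 element and 3.9% the NF-kB element. The other motifs were the interferon response core GAAANNGAAA (2.98% of windows), the ETS-IRF composite GGAANNGAAA (2.3%) and the AP-1 element TGANTCA (6.75%). Of the 10 genes 7 had an entry, and the AP-1 element was matched in those of Cd80 (bases -42 to -36) and Havcr2 (bases -200 to -194). These are matches of letters and not measured binding sites. Cd86, Cd40 and Cd200r1 had no entry.

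In BMDM, LPS went with higher levels of the costimulatory ligands, CD40 and both PD-1 ligands and with lower levels of the inhibitory receptors. With NZM added, the costimulatory ligands, CD40 and Cd274 were lower than with LPS alone, the inhibitory receptors were higher, and Pdcd1lg2 rose from near 1 TPM to near 80 TPM. The result was not a return to Control: Cd40 and Cd274 remained well above Control, Icosl fell below it, and Cd200r1 exceeded it. The plot of levels by library shows each of these patterns.

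**Figure D1:**
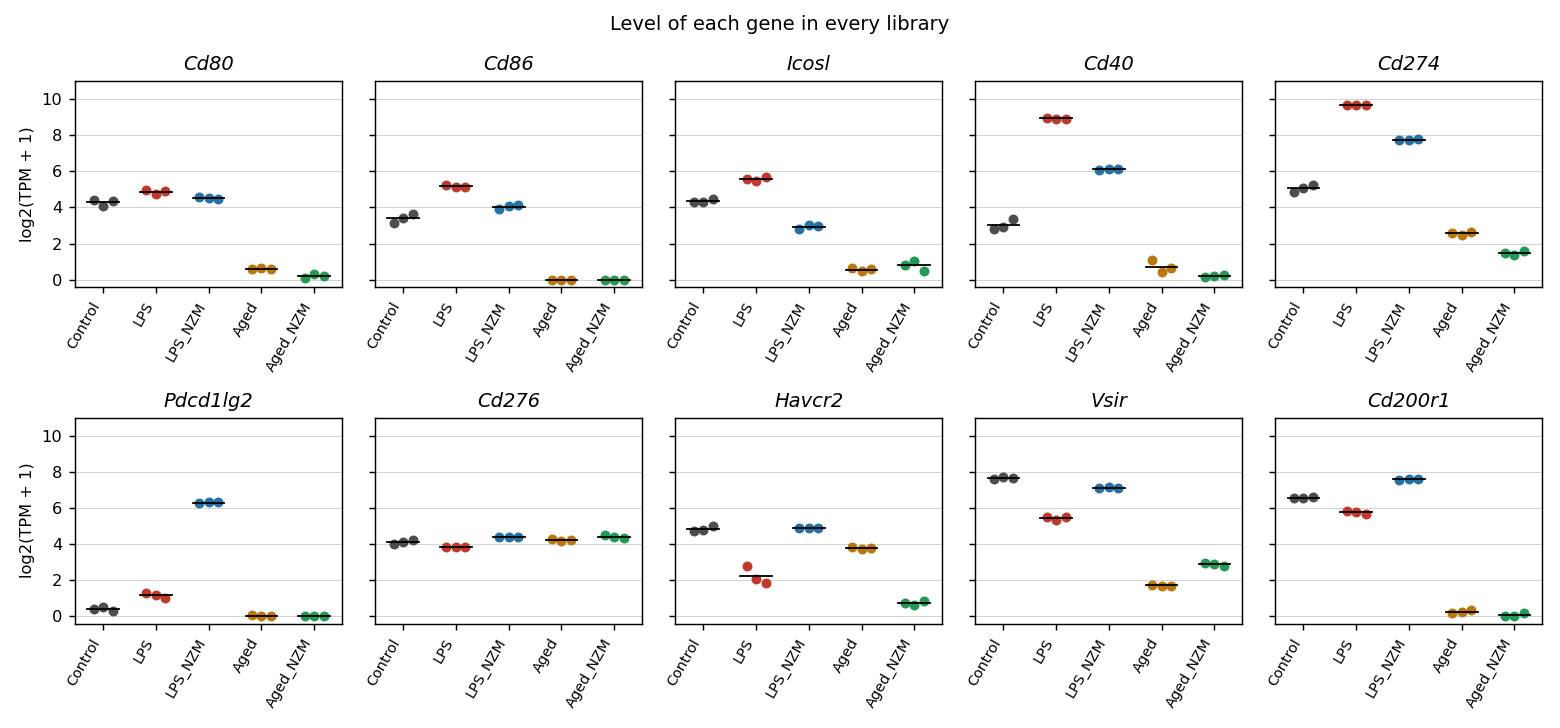
Level of each gene as log2(TPM + 1) on the vertical axis, with a point for each of the 3 libraries of a group and a line at their mean. Pdcd1lg2 is high in LPS_NZM alone, Cd40 and Cd274 are highest in LPS, and Cd276 differs least between the 5 groups.

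Tests used limma on log2(TPM + 1), and a gene was called at a Benjamini-Hochberg adjusted p under 0.05 over all tested genes. Comparing LPS with Control, all 10 genes were called, 6 higher and 4 lower, where 80.8% of all 14486 tested genes were called, 15.2% as higher and 65.6% as lower. Comparing LPS_NZM with LPS, all 10 were called, 5 higher and 5 lower, against 77.3% of all tested genes, 60.4% as higher and 16.9% as lower. Comparing LPS_NZM with Control, 8 of the 10 were called, 6 higher and 2 lower, against 47.7% of all tested genes, 18.6% as higher and 29.1% as lower. With so many genes called, a count of 10 of 10 is near the background, and the sizes of the changes carry more than the counts. The median log2 changes of the 10 genes in these comparisons were 0.68, 0.09 and 0.45, and those of all tested genes were -0.48, 0.40 and -0.07. These comparisons share libraries and are not independent of each other.

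TPM are shares of a whole, so each comparison was also repeated with each library set to the same median over its tested genes (centring), which brought the median over all tested genes to 0.07, -0.06 and 0.01. The calls over all genes in LPS against Control then split into 5285 higher and 4209 lower, from 2203 and 9502. For LPS_NZM against LPS they split into 4310 higher and 5118 lower, from 8752 and 2445, and for LPS_NZM against Control into 3612 higher and 3190 lower, from 2697 and 4218. Of the 10 genes, 9 kept their direction after centring in all 3 BMDM comparisons, and the exception was Cd276.

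**Figure D2:**
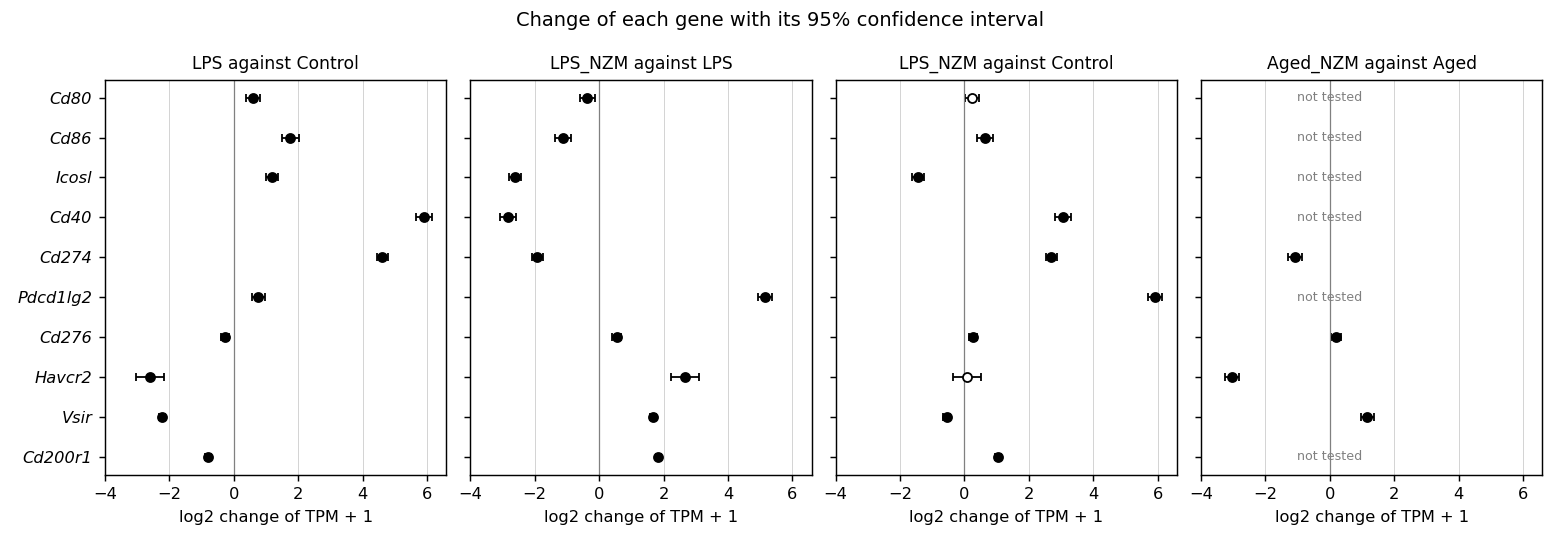
Change of each gene in 4 comparisons, as the difference of mean log2(TPM + 1), with bars for the 95% confidence interval from limma, filled points for called changes and open points for those not called. Cd274 and Pdcd1lg2 point in opposite directions in LPS_NZM against LPS, and only 4 of the 10 genes could be tested in the BMSC.

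Among the ligands of the CD28 family, Cd86 (ENSMUSG00000022901) read 7.94, 9.62 and 11.4 TPM in Control, 37.2, 33.8 and 33.5 TPM in LPS, and 14.1, 15.9 and 16.7 TPM in LPS_NZM. The 3 groups did not overlap, with LPS highest and LPS_NZM between the others. Cd86 rose 3.6-fold with LPS (log2 change 1.76, SE 0.11, adjusted p = 2.11e-07), fell by 1.11 on the log2 scale with NZM on top of LPS (adjusted p = 7.32e-06), and ended 1.61-fold above Control (adjusted p = 0.00108).

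Cd80 (ENSMUSG00000075122), whose product shares both receptors with CD86, moved the same way. It read 20.4, 15.7 and 19.7 TPM in Control, 30.8, 25.6 and 29.2 TPM in LPS, and 23.0, 21.9 and 20.8 TPM in LPS_NZM. LPS was highest, and the LPS_NZM libraries lay just above all 3 Control libraries. The rise with LPS was 1.53-fold (log2 change 0.60, SE 0.10, adjusted p = 0.000288) and the fall with NZM 0.36 on the log2 scale (log2 change -0.36, adjusted p = 0.00721). After centring these changes were larger, 1.14 (adjusted p = 6.93e-06) and -0.83 (adjusted p = 7.49e-05). LPS_NZM against Control gave a log2 change of 0.23 with a 95% interval of 0.01 to 0.46, which was not called (adjusted p = 0.0814), but was called without Control replicate 1 (0.30, adjusted p = 0.0447) and after centring (0.31, adjusted p = 0.0372).

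The balance of both ligands differed between the groups. The ratio of Cd80 to Cd86 TPM was 1.97 ± 0.516 in Control, 0.819 ± 0.0577 in LPS and 1.42 ± 0.197 in LPS_NZM (mean ± SD, n = 3), so that Cd86 exceeded Cd80 in LPS only among the BMDM groups. An exact two-sided permutation test on the log2 ratio of TPM + 1 gave p = 0.1 for LPS against Control and for LPS_NZM against LPS, the smallest value that 3 libraries against 3 allow (adjusted p = 0.114 over 8 ratio tests). For LPS_NZM against Control the exact permutation p was 0.2, and the libraries overlapped.

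Icosl (ENSMUSG00000000732), the ligand of ICOS, had the widest swing of this family under NZM. It read 18.9, 18.9 and 21.4 TPM in Control, 46.0, 42.4 and 50.2 TPM in LPS, and 6.05, 7.1 and 6.87 TPM in LPS_NZM. LPS libraries were the highest and LPS_NZM libraries the lowest, with no overlap. The rise with LPS was 2.34-fold (log2 change 1.19, SE 0.08, adjusted p = 3.75e-07). NZM then lowered it 6.93-fold (log2 change -2.62, adjusted p = 9.57e-10), to 2.95-fold under Control (log2 change -1.43, adjusted p = 4.27e-07). Icosl was the only one of the 6 genes that rose with LPS to end below Control.

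Cd40 (ENSMUSG00000017652) had the largest rise with LPS of the 10. It read 6.07, 6.61 and 9.26 TPM in Control, 503, 484 and 482 TPM in LPS, and 67.0, 68.3 and 68.1 TPM in LPS_NZM. The groups lay far apart, and Control replicate 3 was the highest of its group. Cd40 rose 67.0-fold (log2 change 5.90, SE 0.11, adjusted p = 2.6e-11), fell 7.22-fold with NZM (log2 change -2.83, adjusted p = 5.07e-09), and stayed 9.27-fold above Control (log2 change 3.07, adjusted p = 1.51e-08).

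Cd274 (ENSMUSG00000016496), the PD-L1 gene, was the most abundant of the 10 in LPS. It read 28.0, 32.5 and 36.7 TPM in Control, 817, 809 and 813 TPM in LPS, and 209.7, 210.1 and 222 TPM in LPS_NZM. As for Cd40, LPS was highest and LPS_NZM lay between LPS and Control. The rise was 25.1-fold (log2 change 4.61, SE 0.08, adjusted p = 1.11e-11), the fall with NZM 3.8-fold (log2 change -1.92, adjusted p = 5.78e-09), and the level in LPS_NZM was 6.6-fold above Control (log2 change 2.69, adjusted p = 2.9e-09). Over the 9 BMDM libraries the Pearson r of Cd40 with Cd274 was 0.997, as a description of libraries that share their group means.

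Pdcd1lg2 (ENSMUSG00000016498), the PD-L2 gene, behaved differently from its neighbour. It read 0.32, 0.43 and 0.21 TPM in Control, 1.44, 1.23 and 1.05 TPM in LPS, and 75.9, 80 and 78.4 TPM in LPS_NZM. All Control and LPS libraries were low, and the LPS_NZM libraries stood alone. With LPS the log2 change was 0.76 (SE 0.10, adjusted p = 3.34e-05), at levels near 1 TPM where the pseudocount makes it smaller than the 3.88-fold difference in mean TPM (1.31 after centring). With NZM on top of LPS it was 63.0-fold higher (log2 change 5.15, SE 0.10, adjusted p = 2.48e-11), and against Control 244-fold (log2 change 5.91, adjusted p = 6.74e-11).

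The ratio of Cd274 to Pdcd1lg2 TPM was therefore 113 ± 54.2 in Control, 666 ± 104 in LPS and 2.74 ± 0.106 in LPS_NZM. Pdcd1lg2 under 1.5 TPM in Control and LPS makes those 2 ratios imprecise, as the SD shows. The exact two-sided permutation test on the log2 ratio gave p = 0.1 for each of the 3 BMDM comparisons, the smallest possible (adjusted p = 0.114).

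The genes beside the PD-1 ligands, chosen after their values were seen, did not share this pattern. Plgrkt, next to Cd274, read 44.7 ± 2.37, 49.8 ± 3.54 and 64.3 ± 1.9 TPM in Control, LPS and LPS_NZM. Plgrkt rose slightly with NZM (log2 change 0.36, limma adjusted p = 0.000215). Ric1, next to Pdcd1lg2, read 16.1 ± 0.539, 31.9 ± 0.825 and 30.5 ± 0.815 TPM. It rose with LPS (log2 change 0.94, limma adjusted p = 2.58e-08), with a log2 change of -0.06 for LPS_NZM against LPS (adjusted p = 0.227). The ranges of Plgrkt and Ric1 are small beside those of Cd274 and Pdcd1lg2. Farther out, Ermp1 fell with LPS (log2 change -1.71, limma adjusted p = 2.88e-09) and rose with NZM (0.83, adjusted p = 6.93e-07). Insl6 rose with LPS (1.52, limma adjusted p = 1.8e-05) and was not called for LPS_NZM against LPS (-0.22, adjusted p = 0.271).

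**Figure D3:**
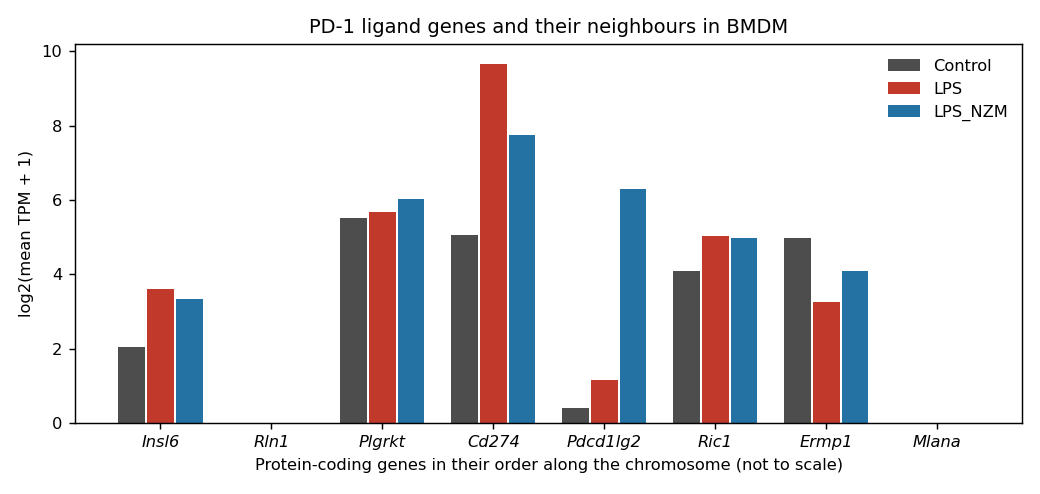
Mean level, as log2(mean TPM + 1), of Cd274, Pdcd1lg2 and the 3 protein-coding genes on each side in the order of the chromosome, in the 3 BMDM groups (bars, n = 3). Rln1 and Mlana are listed at 0 in all BMDM libraries, and only Pdcd1lg2 is near 0 in Control and high in LPS_NZM.

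Dendritic cells are another known source of PD-L2, and some of their markers were highest in LPS_NZM while others were not. The summed level of 9 dendritic cell markers was 26.4 to 41.7 TPM in Control, 49.7 to 58.6 TPM in LPS and 69.55 to 73.9 TPM in LPS_NZM. Itgax, which macrophages also express, read 22.8 ± 2.12, 23.9 ± 0.593 and 62.9 ± 1.31 TPM. Ccr7, a marker of mature dendritic cells, was instead highest in LPS, with 1.46 ± 0.199, 21.7 ± 1.38 and 1.74 ± 0.19 TPM. Siglech, of plasmacytoid dendritic cells, was under 1 TPM in all LPS_NZM libraries and reached 13.0 TPM in Control replicate 3 and 11.1 TPM in LPS replicate 1. The defining markers Flt3 and Clec9a did not exceed 0.54 TPM in any BMDM library, and Zbtb46 read 1.98, 1.43 and 4.93 TPM. The part of these cells in the Pdcd1lg2 result was not tested.

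Cd276 (ENSMUSG00000035914), the B7-H3 gene, whose receptor on T cells is not settled, was the steadiest of the 10. It read 15.4, 16.5 and 17.7 TPM in Control, 13.1, 13.6 and 13.6 TPM in LPS, and 19.7, 20.4 and 19.8 TPM in LPS_NZM. The 3 groups did not overlap, but their means were within 1.49-fold of each other. On the TPM scale it was lower with LPS (log2 change -0.28, SE 0.06, adjusted p = 0.0013) and higher with NZM (log2 change 0.54, adjusted p = 1.18e-05), ending at 1.21-fold above Control (adjusted p = 0.00448). After centring the first change turned to 0.27 (adjusted p = 0.00296), so it was called on both scales but in opposite directions. The second shrank to 0.08 (adjusted p = 0.277), keeping its direction and losing its call.

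All 3 inhibitory receptors went down with LPS and up with NZM. Havcr2 (ENSMUSG00000020399), the TIM-3 gene, read 25.5, 26.4 and 31.0 TPM in Control, 5.87, 3.21 and 2.63 TPM in LPS, and 29.1, 28.8 and 29.1 TPM in LPS_NZM. LPS libraries were low, and LPS_NZM libraries lay within the Control range. The fall with LPS was 7.08-fold (log2 change -2.60, SE 0.19, adjusted p = 6.71e-07) and the rise with NZM 7.43-fold (log2 change 2.67, adjusted p = 5.53e-07). LPS_NZM against Control gave 0.07 with an interval of -0.36 to 0.51 (adjusted p = 0.786), a range that allows a modest difference in either direction.

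Vsir (ENSMUSG00000020101), the VISTA gene, was the most abundant of the 10 in Control. It read 197, 212 and 205 TPM in Control, 44.4, 39.9 and 44.3 TPM in LPS, and 139, 140.0 and 139 TPM in LPS_NZM. The fall with LPS was 4.78-fold (log2 change -2.23, SE 0.05, adjusted p = 4.58e-11) and the rise with NZM 3.25-fold (log2 change 1.68, adjusted p = 3.21e-10). The LPS_NZM libraries stayed under every Control library (log2 change -0.55, adjusted p = 6.16e-06).

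Cd200r1 (ENSMUSG00000022667), the receptor through which CD200 calms myeloid cells, read 91.7, 92.5 and 95.01 TPM in Control, 55.5, 53.5 and 50.7 TPM in LPS, and 188, 194 and 195 TPM in LPS_NZM. Here the LPS_NZM libraries were the highest and LPS the lowest. It was 1.75-fold lower with LPS (log2 change -0.80, SE 0.04, adjusted p = 2.05e-08), 3.61-fold higher with NZM on top of LPS (log2 change 1.83, adjusted p = 4.58e-11), and 2.07-fold above Control (log2 change 1.04, adjusted p = 1.48e-08). After centring the change with LPS was smaller, -0.25 (adjusted p = 0.000222). Its ligand gene Cd200 went the other way, with 5.75 ± 0.891, 34.1 ± 1.69 and 4.96 ± 0.146 TPM in Control, LPS and LPS_NZM.

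The paralogues of Cd200r1 are similar in sequence, so reads may have been divided among them. Cd200r4, an activating relative, rose where Cd200r1 fell, with 7.58 ± 1.45 TPM in Control, 20.4 ± 0.918 TPM in LPS and 12.5 ± 1.38 TPM in LPS_NZM. Cd200r3, known from mast cells and basophils, read 0.09, 8.42 and 3.41 TPM in the Control libraries, in the order of their mast cell and basophil marker sums of 13.3, 528 and 195 TPM. Cd200r1 showed no such spread within Control.

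Macrophage markers themselves shifted with treatment, Csf1r reading 1100 ± 57.9 TPM in Control, 625 ± 20.1 TPM in LPS and 1279 ± 14.3 TPM in LPS_NZM, lower in LPS than in both other groups like Havcr2 and Vsir. Adgre1 went the other way, with 706 ± 18.2, 1097 ± 9.45 and 937 ± 6.87 TPM. The part of cell composition in the changes of the 10 genes was not tested.

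The make-up of the 10 genes as a set changed with each treatment. Their summed level was 430.0 ± 18.2 TPM in Control, 1526 ± 24.8 TPM in LPS and 785 ± 12.2 TPM in LPS_NZM. Vsir made up 47.6% ± 1.7 of it in Control and 2.81% ± 0.14 in LPS. In LPS, Cd274 made up 53.2% ± 0.61 and Cd40 32.1% ± 0.34. LPS_NZM was the most even, with Cd274 at 27.3% ± 0.61, Cd200r1 at 24.5% ± 0.12, Vsir at 17.7% ± 0.25 and Pdcd1lg2 at 9.96% ± 0.19.

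**Figure D4:**
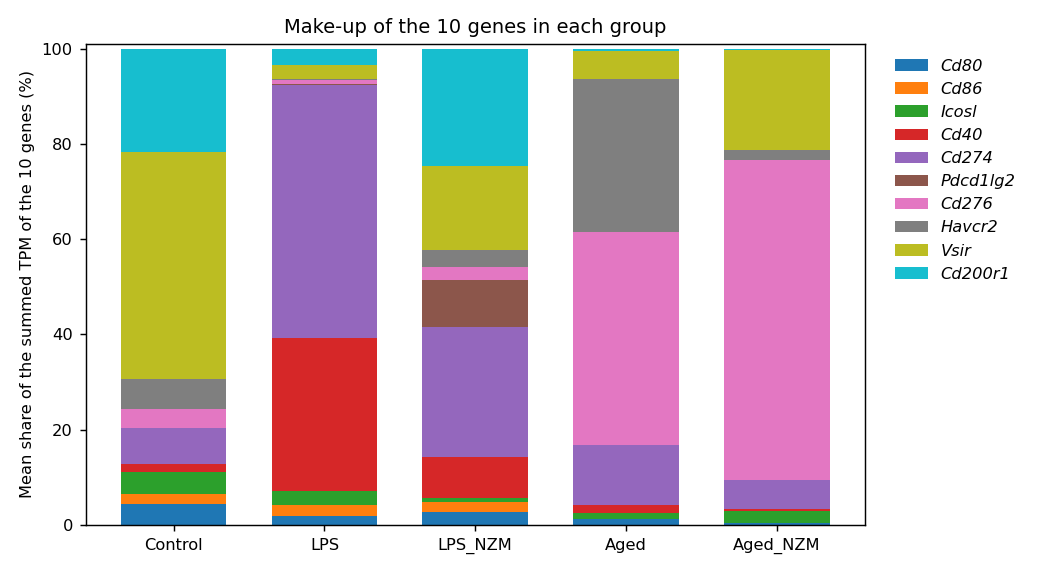
Share of each gene in the summed TPM of the 10 genes, in percent, as the mean over the 3 libraries of a group (stacked bars). Vsir leads in Control at 47.6%, Cd274 in LPS at 53.2%, and Cd276 in Aged_NZM at 67.2%.

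In the BMSC the 10 genes were low, with sums of 39.3 ± 1.95 TPM in Aged and 30.2 ± 1.79 TPM in Aged_NZM. Cd276, Havcr2, Cd274 and Vsir were the 4 that reached 1 TPM in 3 libraries and were tested. All 4 were called, 2 higher and 2 lower with NZM, where 70.5% of all 13865 tested genes were called, 21.6% as higher and 48.9% as lower. Their median log2 change was -0.44, against -0.18 over all tested genes (-0.28 and -0.02 after centring). Havcr2, under 1 TPM in Aged_NZM, entered this count and median through the Aged libraries alone, so a fall was the only change it could show.

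Havcr2 had the largest change of the BMSC members, reading 13.1, 12.2 and 12.5 TPM in Aged and 0.68, 0.54 and 0.8 TPM in Aged_NZM. It was 18.7-fold lower with NZM (log2 change -3.03, SE 0.09, adjusted p = 9.46e-09), the opposite of its rise in BMDM. It passed the filter through the Aged libraries alone, so that its presence among the tested genes follows from its level there. The pan-leukocyte gene Cd53 moved along, from 5.12 ± 0.0493 to 0.533 ± 0.0551 TPM. The macrophage marker Cd68 went from 24.9 ± 2.07 to 13.0 ± 0.746 TPM, but its list did not fall as a whole. Of 5 macrophage markers tested in the BMSC, 0 were called higher and 1 lower (2 and 1 after centring), with a median log2 change of -0.008. Over all tested genes 21.6% were called higher and 48.9% lower. The 4 pan-leukocyte markers summed to 5.18 to 5.3 TPM in Aged and 0.48 to 0.59 TPM in Aged_NZM, nearly all of it Cd53. Ptprc and Adgre1 did not exceed 0.03 TPM in either group. The part of leukocytes in the fall of Havcr2 was not tested.

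Vsir rose in the BMSC from 2.34, 2.27 and 2.24 TPM in Aged to 6.75, 6.52 and 5.81 TPM in Aged_NZM, 2.79-fold (log2 change 1.16, SE 0.09, adjusted p = 2.48e-06). Cd274 fell from 4.93, 4.63 and 5.14 TPM to 1.75, 1.61 and 2.02 TPM, 2.73-fold (log2 change -1.08, SE 0.10, adjusted p = 8.9e-06). In both genes the groups were well apart, and each moved in the same direction as in BMDM given NZM on top of LPS.

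Cd276 was the most abundant of the 10 in the BMSC, at levels close to those of BMDM. It read 18.5, 16.9 and 17.5 TPM in Aged and 21.9, 20.1 and 19.0 TPM in Aged_NZM, without overlap. The log2 change of 0.19 (SE 0.06, adjusted p = 0.022) was not called without Aged replicate 2 (0.17, adjusted p = 0.072), without Aged replicate 3 (0.19, adjusted p = 0.0541), without Aged_NZM replicate 1 (0.14, adjusted p = 0.0773) or with no filter (0.19, adjusted p = 0.0541). It was larger and called after centring (0.35, adjusted p = 0.000764) and after quantile normalization (0.36, adjusted p = 0.000765).

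The other 6 genes were at the bottom of the scale in the BMSC. Cd86 was listed at 0 in all 6 libraries, and Pdcd1lg2 in all but Aged replicate 1 (0.07 TPM). Cd80 read 0.51, 0.56 and 0.49 TPM in Aged and 0.05, 0.25 and 0.13 TPM in Aged_NZM, and Icosl 0.58, 0.37 and 0.49 TPM against 0.77, 1.05 and 0.41 TPM. Cd40 read 1.16, 0.32 and 0.55 TPM in Aged and 0.12, 0.14 and 0.19 TPM in Aged_NZM, and Cd200r1 did not exceed 0.27 TPM. The groups were apart for Cd80, Cd40 and Cd200r1 and overlapped for Icosl.

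Whether the response to NZM differed between cell types was tested over all 15 libraries, as the change from Aged to Aged_NZM minus that from LPS to LPS_NZM. The pretreatments differ between the cell types, so cell type and pretreatment cannot be told apart. The difference was called for 9 of the 10 genes, against 72.0% of all 16696 tested genes. It was largest for Havcr2 (-5.69, SE 0.24, adjusted p = 3.62e-11), which rose in BMDM and fell in BMSC. For Cd86, Icosl, Cd40, Pdcd1lg2 and Cd200r1 the BMSC level was at or near 0, so the difference mainly restates the change in BMDM. Cd80 was also low in the BMSC, at 0.52 TPM in Aged and 0.143 TPM in Aged_NZM, so its difference depends on the pseudocount. It was not called (-0.05, interval -0.35 to 0.25, adjusted p = 0.756), but was called with a pseudocount of 0.1 (-1.057, limma adjusted p = 0.00958). The Cd80 difference was called in the other direction after centring (0.57, adjusted p = 0.00363) and after quantile normalization (0.45, adjusted p = 0.0131).

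Ordered by level, Cd80, Cd86, Icosl, Cd40 and Cd274 were highest in LPS, Pdcd1lg2 and Cd200r1 in LPS_NZM, Vsir in Control, and neighbours in these orders were mostly apart. The neighbours whose libraries overlapped were LPS_NZM and Control for Havcr2, Aged_NZM with LPS_NZM and Aged with Control for Cd276, and Aged with Aged_NZM for Icosl and Pdcd1lg2. Cd86 was at 0 in both BMSC groups.

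Genes whose levels followed each member most closely were found by the Pearson r of log2(TPM + 1) over all 15 libraries among 11461 genes. These libraries share 5 group means and the gap between cell types, so high values are common, and 415 genes reached an r of at least 0.98 with Cd80. Pdcd1lg2 was nearest to Retnla (r = 0.994), which encodes a secreted resistin-like protein and read 0.48, 0.783 and 164.5 TPM in Control, LPS and LPS_NZM, and to Cdh1, the E-cadherin gene (r = 0.992), with 0.723, 0.643 and 44.5 TPM. Only 12 genes reached an r of 0.98 with it. Cd40 was nearest to Nadk and Cxcl3, Cd274 to Rab20 and Clic4, Icosl to Calcrl and Slfn3, Cd86 to Sla and Lcp2, and Cd80 to Spi1 and Arpc5. Havcr2 was nearest to Commd7 and Bid, Vsir to Gnai2 and Leprot, and Cd200r1 to Ahrr and Il21r. Cd276 had no close match, Il6st (r = 0.954) and Ier5l (r = 0.953) being the nearest.

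Of the partners that these molecules bind, the T cell genes Pdcd1, Ctla4, Icos and Cd40lg did not exceed 1.78 TPM in any library. Cd28 read 7.06 ± 1.17 TPM in Control, 0.767 ± 0.355 TPM in LPS and 3.98 ± 0.232 TPM in LPS_NZM. The sum of 7 T cell markers was 18.8 to 34.9 TPM in Control, 8.31 to 14.7 TPM in LPS and 17.5 to 33.9 TPM in LPS_NZM, and its part in the levels of Cd28 was not tested. Lgals9, the galectin-9 gene whose product binds TIM-3, went opposite to Havcr2 in BMDM, with 238 ± 9.09 TPM in Control, 595 ± 10.3 TPM in LPS and 214 ± 5.48 TPM in LPS_NZM. In the BMSC it also opposed Havcr2, rising from 18.04 ± 1.37 to 36.3 ± 1.31 TPM (log2 change 0.97, adjusted p = 6.16e-07). Of 10 tested partner genes, 2 rose and 6 fell with LPS (4 and 3 after centring), and 4 rose and 2 fell with NZM (2 and 4 after centring). Without centring, the counts with LPS are near the shares over all tested genes (15.2% higher and 65.6% lower). With NZM those shares were 60.4% higher and 16.9% lower. After centring, 5285 of all 14486 tested genes were higher and 4209 lower with LPS, and 4310 higher and 5118 lower with NZM.

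Other costimulatory and coinhibitory ligands mostly rose with LPS and fell with NZM. Of 14 tested, 10 rose and 3 fell with LPS (median log2 change 0.72, against -0.48 over all genes), and 3 rose and 10 fell with NZM (median -0.54, against 0.40). Over all tested genes 15.2% rose and 65.6% fell with LPS, and 60.4% rose and 16.9% fell with NZM. After centring the counts of the 14 were 10 and 1, and 0 and 11. Those of all 14486 tested genes were then 5285 and 4209, and 4310 and 5118. Icam1, the adhesion ligand of LFA-1, read 32.1 ± 1.01, 541 ± 23.8 and 152 ± 1.35 TPM in Control, LPS and LPS_NZM. Tnfrsf14, the HVEM gene, read 21.1 ± 1.26, 128 ± 5.35 and 26.6 ± 2.86 TPM, and Tnfsf9, the 4-1BB ligand gene, 11.2 ± 1.27, 42.8 ± 5.27 and 6.88 ± 0.243 TPM. Tnfsf9, like Icosl, ended below Control (log2 change -0.63, adjusted p = 0.000536). In the BMSC 5 of 8 rose and 2 fell (21.6% and 48.9% of all tested genes), among them Nectin2, from 30.2 ± 2.09 to 55.5 ± 3.18 TPM, and Pvr, from 79.9 ± 4.86 to 36.7 ± 1.4 TPM, both ligands of the receptor TIGIT.

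Other inhibitory receptors of myeloid cells did not move as a block. Of 12 tested, 6 rose and 4 fell with LPS, and 4 rose and 7 fell with NZM, against 15.2% and 65.6%, and 60.4% and 16.9%, of all tested genes. After centring the counts were 8 and 4, and 3 and 8. Of all 14486 tested genes, 5285 then rose and 4209 fell with LPS, and 4310 rose and 5118 fell with NZM. Lair1, a collagen receptor, followed the pattern of Cd200r1, with 82.0 ± 1.87, 25.1 ± 2.12 and 205 ± 7.44 TPM in Control, LPS and LPS_NZM, and Cd300a that of Havcr2, with 66.9 ± 1.68, 12.1 ± 0.515 and 72.3 ± 1.39 TPM. Siglece and Pilra did the reverse, Siglece reading 7.37 ± 0.823, 78.4 ± 2.45 and 12.8 ± 0.38 TPM. In the BMSC, Lilrb4a fell alongside Havcr2, from 18.5 ± 1.19 to 1.48 ± 0.375 TPM (log2 change -2.98, adjusted p = 2.5e-08), and its reads may be shared with a close copy.

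Genes of CD40 signalling also mostly rose with LPS and fell with NZM. Of 13 tested, 10 rose and 3 fell with LPS (median 1.47), and 4 rose and 9 fell with NZM (median -0.72). Over all tested genes the shares were 15.2% and 65.6% with LPS and 60.4% and 16.9% with NZM. In LPS_NZM, 10 of the 13 were called above Control and 1 below it, against 18.6% and 29.1% of all tested genes. Traf1, an adaptor of this pathway, read 3.32 ± 0.161, 186 ± 7.57 and 10.4 ± 0.505 TPM, and Nfkb2, of the noncanonical NF-kB pathway, 40.6 ± 1.63, 399.6 ± 11.6 and 94.0 ± 2.42 TPM. After centring, 12 rose and 1 fell with LPS, and 2 rose and 10 fell with NZM. Those of all 14486 tested genes were then 5285 and 4209, and 4310 and 5118. In the BMSC, where Cd40 was near 0, 3 rose and 8 fell, near the shares of 21.6% and 48.9% over all tested genes.

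Among 14 interferon and STAT regulators of the PD-1 ligands, 10 rose and 3 fell with LPS, and 4 rose and 9 fell with NZM. The shares of all tested genes were 15.2% and 65.6%, and 60.4% and 16.9%. After centring the counts were 11 and 3, and 4 and 10, beside 5285 and 4209, and 4310 and 5118, of all 14486 tested genes. Jak2, the kinase of interferon-gamma receptors, read 24.7 ± 1.27, 230.4 ± 5.92 and 80.2 ± 3.37 TPM in Control, LPS and LPS_NZM, in the order of Cd274. Irf4, a transcription factor known from alternatively activated macrophages, shared the pattern of Pdcd1lg2, with 1.07 ± 0.426, 0.97 ± 0.03 and 14.5 ± 0.935 TPM (log2 change 2.97 for LPS_NZM against LPS, adjusted p = 2.5e-08). In the BMSC 8 of 13 rose and 2 fell (21.6% and 48.9% of all tested genes), Jak2 rising from 26.4 ± 0.887 to 38.8 ± 2.16 TPM while Cd274 fell.

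The last list held 8 genes that act on the turnover of CD86 and PD-L1 protein, which transcript levels do not measure. Marchf1, a ubiquitin ligase that removes CD86 from the surface, read 27.1 ± 1.21, 266 ± 4.98 and 35.7 ± 2.87 TPM in Control, LPS and LPS_NZM, rising and falling with Cd86 itself. Cd83, whose product opposes that ligase, read 2.81 ± 0.403, 9.31 ± 0.357 and 19.4 ± 0.462 TPM and was highest in LPS_NZM. Of the 8, 3 rose and 4 fell with LPS, and 5 rose and 2 fell with NZM (5 and 3, and 4 and 4, after centring). Over all tested genes 15.2% rose and 65.6% fell with LPS, and 60.4% rose and 16.9% fell with NZM, all without centring. The uncentred counts with NZM are near that background. After centring, 5285 of all 14486 tested genes rose and 4209 fell with LPS, and 4310 rose and 5118 fell with NZM.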

How the data were processed

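Polyadenylated RNA had been sequenced from 9 BMDM and 6 BMSC libraries in 5 groups of 3. The authors deposited TPM for 56979 Ensembl identifiers, made with fastp, HISAT2, RSEM and StringTie on build GRCm39, per the submitters' processing notes, which give neither versions nor roles. Sequencing depth is unknown, so no counting interval or floor is given, and the number of libraries limits the precision. Between 21360 and 23398 identifiers were above 0 in a library. Symbols came from a name table that matched 52072 identifiers.

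The tests were those of limma 3.58.1 (R 4.3.3, mean-variance trend, two-sided) on log2(TPM + 1), for genes with a TPM of at least 1 in at least 3 libraries of the fit. A fit held the 9 BMDM libraries, another the 6 BMSC libraries, and another all 15 for the difference between NZM responses. Adjustment was by Benjamini-Hochberg over all tested genes, with a threshold of 0.05. Fold changes are ratios of mean TPM, and log2 changes are differences on the log2(TPM + 1) scale, which understates changes of low genes. Ratios of ligands and promoter matches were computed in Python 3.11.15. The procedure was tested on simulated data.

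All 10 genes were named whatever their values. From each list up to 4 called genes were eligible, those with the largest change, no overlap between groups and at least 5 TPM as the higher of both means, and for each member the 2 genes of highest correlation. Other genes are named for their role or as markers. The members and lists were chosen with earlier results of these data known. Alternatives comprised the pseudocount, the filter, centring, quantile normalization, the libraries in the fit, a replicate block and leaving out each library. All 15 libraries were kept. A gene of a list is not reported here by name.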

Additional observations from a re-analysis of the deposited data

Results flagged for a closer look

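The NZM response of 9 of the 10 genes differed between the cell types, by a test of the difference itself in limma over all 15 libraries. In the same test 72.0% of all 16696 tested genes were called, so the count alone says little about these 10. Each value is the log2 change from Aged to Aged_NZM minus that from LPS to LPS_NZM, and cell type and pretreatment cannot be told apart in it. Havcr2 had the largest difference, -5.694, with opposite directions in the cell types. Cd274 fell in both and by less in the BMSC, a difference of 0.8398 (1.46 after centring). Vsir rose in both and by less in the BMSC (-0.5153), and Cd276 likewise (-0.3474), and both of these signs depended on the scale. The pseudocount shrinks changes at the low BMSC levels of Cd274 and Vsir. In mean TPM, Cd274 fell 2.73-fold in the BMSC and 3.8-fold in BMDM, and Vsir rose 2.79-fold and 3.25-fold.

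For the other 5 the BMSC levels were at or near 0 in both groups. Their differences were 1.114 for Cd86 (1.74 after centring), 2.842 for Icosl, 2.321 for Cd40, -5.178 for Pdcd1lg2 and -2.029 for Cd200r1. Cd86 was listed at 0 in every BMSC library, so its difference is its change in BMDM with the sign turned.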

How the results depend on the processing

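Under the alternatives, 726 recomputed log2 changes of the 10 genes kept their direction and their side of the threshold, 9 reversed, 5 gained a call and 6 lost it. Median centring turned Cd276 in LPS against Control to 0.2667, as did quantile normalization (0.2667). In the difference between NZM responses, centring turned Vsir to 0.1072, Cd276 to 0.2751 and Cd80 to 0.5708, and quantile normalization turned Cd276 to 0.3001 and Cd80 to 0.4542; all but the Vsir value were called. The Cd80 difference, not called in the report, ranged from -0.1179 to 0.02169 when a library was left out (0.007912 without Aged_NZM replicate 1) and was called with a pseudocount of 0.1 (-1.057, adjusted p = 0.00958 in limma). The number of the 10 genes called in Aged_NZM against Aged was 7 in the fit of all 15 libraries, where 58% of all 16696 tested genes were called. In that fit, genes low in the BMSC pass the filter through the BMDM. When a library was left out the number ranged from 2 to 4, with 66.4% to 68.7% of all tested genes called. It was 2 without Aged replicate 2 or 3, where Havcr2 no longer passed the filter and Cd276 lost its call. The numbers of all genes called stayed within 1.5 times the main count in all 84 alternatives.

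Whether replicate numbers pair the libraries is not known. Same-numbered libraries had correlations of their deviations from group means of -0.0723 to 0.185, and different-numbered ones of -0.171 to 0.0919. Between Control and LPS_NZM the same-numbered values were 0.145, 0.0203 and 0.185. With 3 libraries in a group, such weak correlations cannot decide the question. With a replicate block the shares of genes called were 80.7%, 76.5%, 46.1%, 69.9% and 71.7%, against 80.8%, 77.3%, 47.7%, 70.5% and 72.0%, and Cd80 in LPS_NZM against Control was called (log2 change 0.2326, adjusted p = 0.0357 in limma). TPM carry no depth, so precision at levels near 1 TPM, as for Pdcd1lg2 in Control, is not known.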
